A study of Mus musculus with 15 samples.

Results

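Apelin, its receptor, neuropilins and angiogenic factors were followed as 10 genes in the mouse left ventricle, namely the peptide apelin (Apln) and its receptor (Aplnr), the neuropilins Nrp1 and Nrp2, the growth factors Vegfa, Vegfb, Angpt1 and Fgf1, the Notch ligand Dll4, and the scavenger receptor Ackr3. They were picked by name from the 15258 genes in the deposited tables, with earlier results of these data known: Apln and Nrp2 had been noted for lower levels with neuregulin in every library. All 10 were among the 11018 genes that passed the filter on low values. The samples came from male C57BL/6NRj mice after a sham operation or after transverse aortic constriction (TAC), which narrows the aorta and loads the left ventricle with pressure. Minipumps delivered saline or NRG1, the growth factor neuregulin-1β, which activates ERBB receptors. There were 3 groups with 5 libraries each, called here sham saline, TAC saline and TAC NRG, and all carried the same batch label. No sham group received NRG1, so its response was measured under constriction only, and age, dose and time after surgery are not in the labels used here. RNA was measured by BRB-seq, in which each RNA sample gets a barcode and the 3′ ends of its transcripts are read.

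Apelin is a secreted peptide that signals through a G protein-coupled receptor on endothelial cells and cardiomyocytes, where it is known as a vasodilator and an inotropic factor, and its gene is a marker of sprouting endothelial tip cells. Neuropilins are co-receptors: Nrp1 and Nrp2 bind vascular endothelial growth factors (VEGFs) together with VEGF receptors and class 3 semaphorins together with plexins, and Nrp2 is known from veins and lymphatic vessels. Dll4 on tip cells activates Notch in the neighbouring cells and restrains sprouting, angiopoietin-1 activates the endothelial receptor Tie2 and stabilises vessels, and Ackr3 takes up the chemokine CXCL12 and the peptide adrenomedullin without G protein signalling.

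The stretches upstream of Apln, Nrp2 and Ackr3 are shown because these were the members whose TAC NRG libraries lay below every library of both other groups. They come from the RefSeq table on GRCm38.p6 (the deposited values were made on GRCm39, per the submitters' processing notes) and cover the 250 bases before the transcription start, 5′ to 3′ on the gene's strand. Nrp2 was cut before the first base that GENCODE annotates as an exon. Apln lies at chrX:48034854-48035103 on the minus strand, Nrp2 at chr1:62703067-62703284 and Ackr3 at chr1:90203730-90203979, both on the plus strand. Capitals mark letters of the motifs searched on either strand, namely GGGCGG for SP1, CACCC for KLF factors and TATAAA for the TATA box.
Apln: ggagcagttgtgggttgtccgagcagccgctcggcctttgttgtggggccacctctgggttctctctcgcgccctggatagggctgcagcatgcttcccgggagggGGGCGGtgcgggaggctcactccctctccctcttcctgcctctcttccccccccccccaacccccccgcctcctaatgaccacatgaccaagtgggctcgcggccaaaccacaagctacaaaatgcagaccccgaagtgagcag
Nrp2: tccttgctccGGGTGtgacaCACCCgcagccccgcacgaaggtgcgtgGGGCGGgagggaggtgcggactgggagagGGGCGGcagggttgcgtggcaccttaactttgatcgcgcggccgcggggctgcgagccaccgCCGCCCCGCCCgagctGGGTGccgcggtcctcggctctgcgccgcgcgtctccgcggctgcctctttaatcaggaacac
Ackr3: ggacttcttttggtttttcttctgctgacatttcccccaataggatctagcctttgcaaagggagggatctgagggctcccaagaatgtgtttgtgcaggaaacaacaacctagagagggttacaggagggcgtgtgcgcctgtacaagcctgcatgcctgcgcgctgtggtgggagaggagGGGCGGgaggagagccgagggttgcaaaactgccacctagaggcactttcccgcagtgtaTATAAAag
The SP1 motif occurred once before Apln and once before Ackr3, and 5 times before Nrp2, where 1 pair of matches overlapped and 1 match lay in the part not shown. Of the 10 members, 7 had an entry in the table, with 8 windows since Vegfa had a pair of starts, and the SP1 motif was present in all 8. The share of all 32851 windows of that length with this motif was 32.7%. Among the 8, the Vegfa window at chr17:46025164-46025413 began in an annotated Vegfa exon, so it is not upstream sequence only. The members' windows held 54.0% to 76.4% G and C against a median of 52.4% over all windows. The relation between motif and base composition was not tested. The letters of the hypoxia factor core (ACGTG, in 16.6% of all windows), AP-1 (TGANTCA, 6.75%), the cAMP response element (TGACGTCA, 1.55%), an E-box (CACGTG, 6.02%), ETS (CCGGAA, 12.0%) and RBPJ (TGGGAA, 21.6%) had no match in the windows of Apln, Nrp2 or Ackr3. TATAAA (12.4% of windows) matched before Ackr3 only among these 3 genes, and CACCC (52.0%) before Nrp2 only. A match describes letters in the window and not a bound site.

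The libraries held 2.02 to 5.62 M whole reads each. Levels are given in CPM on the authors' scaling (counts per M, which is 2 to the power of the deposited value over 1000), so they compare 1 gene between libraries and not 1 gene with another. The 12 cardiomyocyte markers were all expressed and summed to 80570 to 99530 CPM, so the tissue held cardiomyocyte RNA throughout. TAC NRG libraries 4 and 5 were the shallowest, with 2.02 and 2.13 M reads, and stood apart from the other 13 libraries on the second principal component. They lay at -32.4 and -35.9 there, against -3.30 to 17.5. Calls that were lost without them are given with the value, or the range of values, without them. The share of haemoglobin reads was 0.189% to 0.367% in TAC NRG, 0.107% to 0.161% in TAC saline and 0.0888% to 0.221% in sham saline. Whether the libraries are from different mice is not in the labels, so a p-value here reflects spread between samples that may be partly technical. In bulk tissue, fewer cells of a type and less RNA per cell cannot be told apart.

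In TAC saline compared with sham saline, Angpt1 and Fgf1 fell and no member rose. Levels are given below as mean ± SD of 5 libraries and log2 fold changes ± standard error (SE). In limma, a linear model fitted over all tested genes, 2 of the 10 members fell past an adjusted p of 0.05, against 10.7% of all genes called in either direction and 4.24% called lower. The Angpt1 value was known when the members were picked, so nothing is read from this count. Both were lower in every TAC saline library than in any sham library, which held for 3.68% of all genes. The median log2 fold change of the members was -0.11, and that of all genes was -0.01. TAC NRG compared with sham saline gave 6 members past the threshold, all lower: Apln, Nrp1, Nrp2, Angpt1, Dll4 and Ackr3. The share of all genes called was 16.1%, with 7.39% lower. In 5 of the 6, all but Dll4, every TAC NRG library was below every sham library, as for 5.45% of all genes. Apln and Nrp2 had been chosen from values of these TAC NRG libraries, so no p is given for them there and nothing is read from these counts. Of the other 8 members 4 fell, Angpt1 among them, and in 3 of those every TAC NRG library was below every sham library. The members' median log2 fold change was -0.58, or -0.47 without Apln and Nrp2. The comparisons share libraries and are not independent of each other.

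TAC NRG against TAC saline was the comparison from which Apln and Nrp2 were picked, so its values are a description without a test for the members. Apln, Nrp2 and Ackr3 were lower and Fgf1 was higher in all 5 TAC NRG libraries than in any TAC saline library, 4 of 10 members, where 3.06% of all tested genes did not overlap (1.25% lower and 1.81% higher). Apln and Nrp2 were picked for this, so nothing is read from that count, and of the other 8 members 1 was lower (Ackr3) and 1 higher (Fgf1). The remaining 6 members overlapped between the groups. Log2 differences ranged from -1.58 (Apln) to 0.53 (Angpt1), with a median of -0.42, or -0.28 without Apln and Nrp2.

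**Figure D1:**
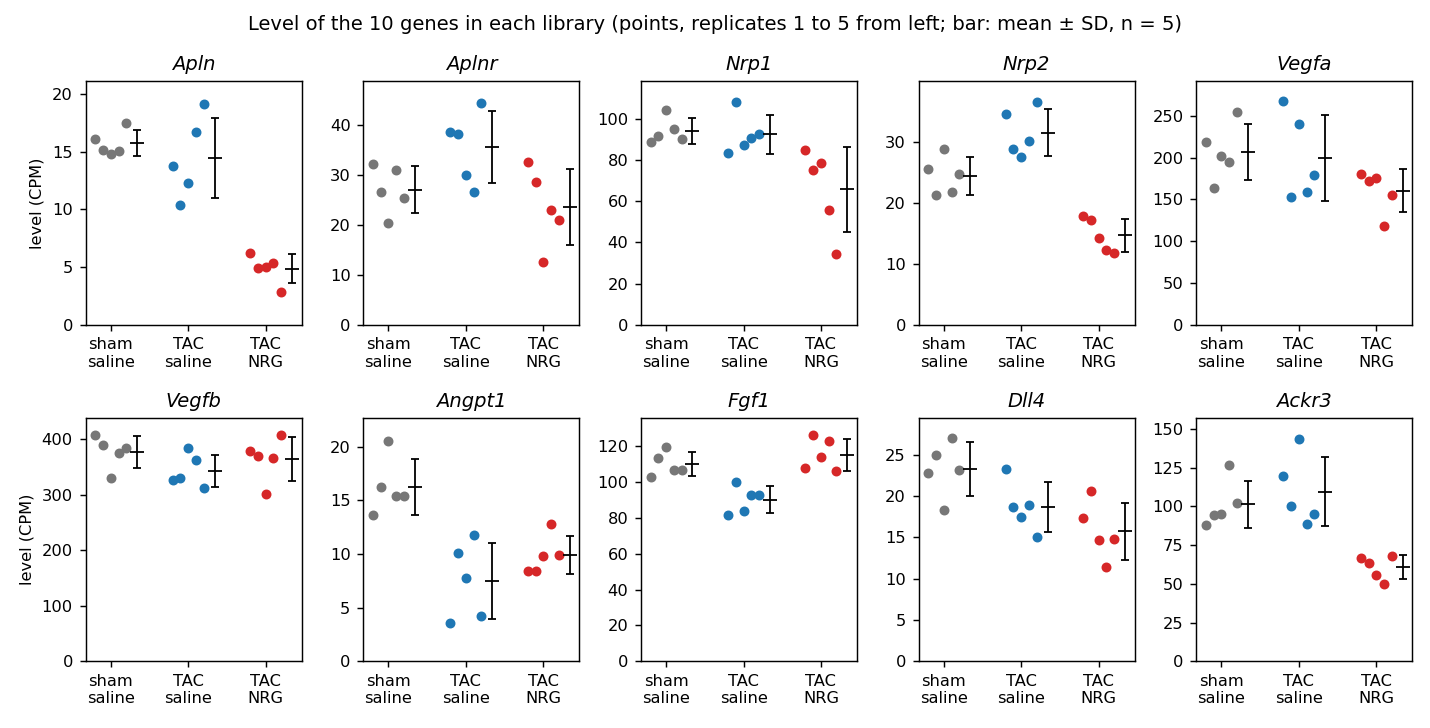
Level of each of the 10 genes in CPM (vertical axes, each from 0) in the 5 libraries of sham saline (grey), TAC saline (blue) and TAC NRG (red), with points in replicate order and bars for the mean ± SD. Apln, Nrp2 and Ackr3 show TAC NRG points below all others, Angpt1 shows both TAC groups below sham, and Fgf1 shows TAC saline below both other groups.

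**Figure D2:**
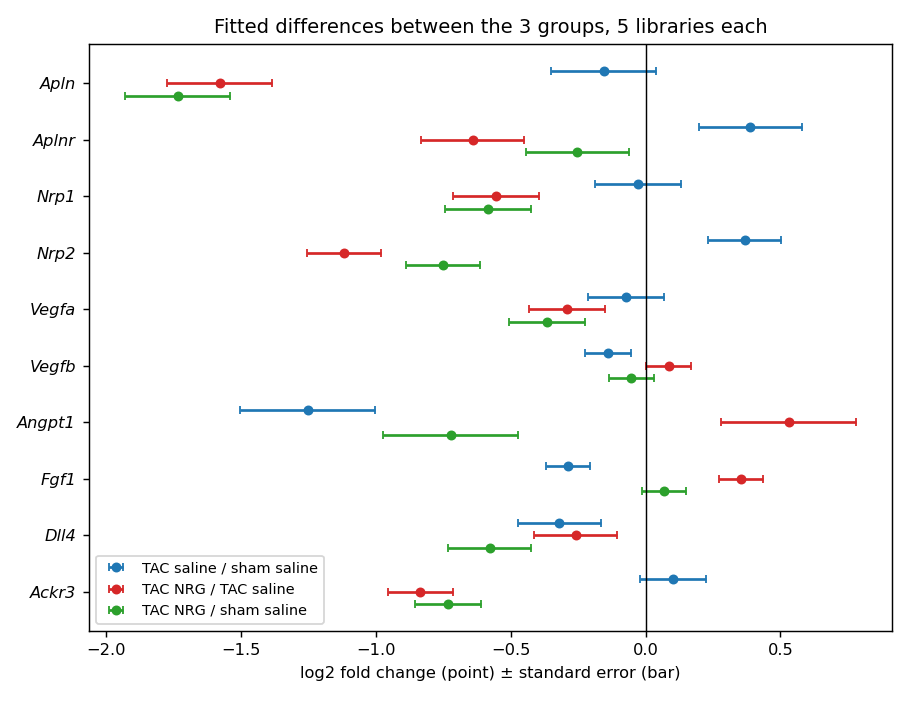
Fitted log2 fold change (horizontal axis) with its standard error for each gene in the 3 comparisons: TAC saline over sham saline in blue, TAC NRG over TAC saline in red and TAC NRG over sham saline in green. Apln has red and green points at -1.58 and -1.73 with a blue point near 0, whereas Angpt1 has its lowest point, -1.25, in blue.

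The apelin ligand was similar in both saline groups and low with NRG1. In sham saline, libraries 1 to 5 held 16.1, 15.2, 14.8, 15.1 and 17.5 CPM of Apln. TAC saline libraries held 13.7, 10.4, 12.3, 16.7 and 19.1 CPM, and TAC NRG libraries 6.22, 4.96, 4.97, 5.34 and 2.87 CPM. The saline groups overlapped, with a wider spread in TAC saline, and every TAC NRG library lay below all 10 saline libraries. Means ± SD were 15.8 ± 1.10, 14.4 ± 3.49 and 4.87 ± 1.23 CPM (n = 5 each). Constriction alone gave a log2 fold change of -0.16 ± 0.20 (SE, limma adjusted p = 0.697), from TAC saline libraries that had also served to pick Apln. TAC NRG was 2.99-fold lower than TAC saline, a log2 difference of -1.58 ± 0.20 (SE), and 3.33-fold lower than sham saline. These values rest on few reads, 6 to 28 per TAC NRG library and 35 to 79 per saline library. Without TAC NRG libraries 4 and 5 the difference from TAC saline was -1.40 on the log2 scale.

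Aplnr, the apelin receptor, had its highest mean in TAC saline. Sham libraries held 32.1, 26.5, 20.3, 31.0 and 25.3 CPM, TAC saline libraries 38.6, 38.1, 29.96, 26.6 and 44.4 CPM, and TAC NRG libraries 32.5, 28.4, 12.6, 23.0 and 21.0 CPM. All 3 groups overlapped, and TAC NRG 3 was the lowest library. The log2 fold change was 0.39 ± 0.19 in TAC saline (limma adjusted p = 0.214) and -0.25 ± 0.19 in TAC NRG (limma adjusted p = 0.415), each against sham. From TAC saline to TAC NRG the difference was -0.64 ± 0.19 (SE). Of 6 other tested genes of the apelin system, which include peptidases and signalling partners of the receptor, 1 rose in TAC saline against sham. It was Gnai3, an inhibitory G protein alpha subunit, from 24.2 ± 3.87 to 31.5 ± 3.42 CPM (log2 0.39, limma adjusted p = 0.0404), a call lost in 6 of the fits that left out 1 library (adjusted p up to 0.117). TAC NRG against TAC saline called 1.3% of all genes with limma. None of the 6 passed there or against sham, where the lowest adjusted p was 0.0552 against sham and 0.266 against TAC saline, and 2 and 1 of them had an unadjusted p under 0.05.

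Nrp2 was highest in TAC saline and lowest in TAC NRG. Sham libraries held 25.5, 21.2, 28.9, 21.8 and 24.7 CPM, TAC saline libraries 34.6, 28.9, 27.5, 30.04 and 36.4 CPM, and TAC NRG libraries 17.8, 17.1, 14.1, 12.3 and 11.7 CPM. Sham and TAC saline overlapped only through sham 3, and TAC NRG lay below both. The means were 24.4 ± 3.08, 31.5 ± 3.82 and 14.6 ± 2.77 CPM (SD, n = 5 each). Constriction alone gave a log2 fold change of 0.37 ± 0.14 (SE, limma adjusted p = 0.0850). It passed in 4 alternative fits, with limma adjusted p of 0.0302 when total reads were the only scaling and 0.0431 when only the 2 groups were fitted. The TAC saline libraries had also served to pick Nrp2, which favours high values there, so no rise is read from these p-values. TAC NRG was 2.17-fold below TAC saline, a log2 difference of -1.12 ± 0.14 (SE), or -0.94 without TAC NRG libraries 4 and 5, and 1.68-fold below sham.

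Nrp1 fell in TAC NRG against sham, and the call did not hold without 2 libraries. Sham libraries held 88.8, 91.7, 104, 95.3 and 90.5 CPM, and TAC saline libraries 83.4, 108, 87.4, 90.9 and 92.7 CPM, which did not separate (limma adjusted p = 0.942). TAC NRG libraries held 85.0, 75.4, 78.8, 56.0 and 34.2 CPM, all below sham, and the lowest were the 2 shallow libraries 4 and 5. The log2 fold change against sham was -0.58 ± 0.16 (SE, limma adjusted p = 0.0136). It was -0.37 without TAC NRG 5, which still passed, and -0.24 without TAC NRG 4 and 5, where the limma adjusted p was 0.108. With a robust estimate of the spread it was 0.0531. Nrp1 overlapped between TAC NRG and TAC saline, with a log2 difference of -0.56 ± 0.16 (SE), or -0.21 without those libraries.

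Among 9 tested partners of neuropilins, class 3 semaphorins, plexins and an adaptor, 1 rose in TAC saline against sham. Sema3f, a semaphorin that binds Nrp2, went from 7.80 ± 1.73 to 13.7 ± 4.29 CPM (log2 0.78, limma adjusted p = 0.0127), and without TAC saline 1 its adjusted p was 0.0577. Plxnd1, the semaphorin receptor plexin D1 of endothelial cells, fell from 89.5 ± 10.6 CPM in TAC saline to 60.0 ± 13.4 CPM in TAC NRG (log2 -0.59, limma adjusted p = 0.0210). That call was lost without TAC NRG 4 and 5 (adjusted p = 0.169), and in 5 fits that left out 1 library. TAC NRG against sham called none of the 9 with limma (lowest adjusted p 0.0552, with 4 at an unadjusted p under 0.05).

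The VEGF ligands Vegfa and Vegfb overlapped between all groups, and neither passed in a comparison with sham. Vegfa, the main driver of endothelial sprouting, held 219, 163, 202, 195 and 254 CPM in sham libraries and 268, 153, 241, 158 and 180 CPM in TAC saline libraries. TAC NRG libraries held 181, 172, 176, 119 and 156 CPM. All groups overlapped, and the mean was lowest in TAC NRG, at 161 ± 25.3 CPM against 200 ± 51.6 in TAC saline and 207 ± 33.5 in sham. The log2 fold change from sham was -0.07 ± 0.14 in TAC saline (limma adjusted p = 0.821) and -0.36 ± 0.14 in TAC NRG (limma adjusted p = 0.0804). The latter passed in 3 alternative fits, with adjusted p from 0.0369 to 0.0432, and was -0.21 without TAC NRG 4 and 5.

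Vegfb, a ligand of VEGF receptor 1 known for its high level in heart muscle, held 408, 389, 331, 376 and 384 CPM in sham libraries, 326, 330, 384, 362 and 313 CPM in TAC saline and 378, 370, 301, 366 and 409 CPM in TAC NRG. The groups overlapped in each pair. Log2 fold changes were -0.14 ± 0.08 in TAC saline and -0.05 ± 0.08 in TAC NRG against sham (limma adjusted p = 0.329 and 0.730), and 0.09 ± 0.08 between the TAC groups. The other 6 genes of the family, the ligands Vegfc, Vegfd and Pgf and the receptors Flt1, Kdr and Flt4, were all tested and none passed in any comparison with limma. Their lowest adjusted p was 0.165, 0.102 and 0.373 for TAC saline against sham, TAC NRG against sham and TAC NRG against TAC saline, with 1, 2 and 0 of them at an unadjusted p under 0.05. Kdr, the main signalling receptor for Vegfa, held 110.7 ± 10.04, 107 ± 12.9 and 93.6 ± 13.4 CPM in sham, TAC saline and TAC NRG.

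Ackr3 was similar in both saline groups and lower in TAC NRG. Sham libraries held 87.7, 94.3, 95.2, 127 and 102 CPM, TAC saline libraries 119, 100.4, 144, 88.6 and 95.3 CPM, and TAC NRG libraries 66.8, 63.2, 55.9, 49.9 and 68.3 CPM. No TAC NRG library reached a saline library, and the saline groups overlapped. Constriction alone gave a log2 fold change of 0.10 ± 0.12 (SE, limma adjusted p = 0.676). Ackr3 fell 1.66-fold in TAC NRG against sham (log2 -0.73 ± 0.12 SE, limma adjusted p = 0.000159), and the call held in every alternative fit and without TAC NRG 4 and 5 (-0.70). TAC NRG was 1.78-fold below TAC saline, a log2 difference of -0.83 ± 0.12 (SE).

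Of the genes around Ackr3, 5 of 7 were tested, and Calcrl, the receptor that binds adrenomedullin together with a RAMP protein, rose in TAC saline against sham. It went from 16.9 ± 1.22 to 22.8 ± 3.12 CPM (log2 0.42, limma adjusted p = 0.0256), a call lost in 5 fits that left out 1 library. Cxcl12, the chemokine that Ackr3 takes up, held 110 ± 6.94, 111 ± 18.6 and 135 ± 24.5 CPM in sham, TAC saline and TAC NRG (limma adjusted p = 0.0923 for TAC NRG against sham). In both comparisons of TAC NRG none of the 5 passed with limma, and 1 (against sham) and 2 (against TAC saline) had an unadjusted p under 0.05. Cxcr4, the signalling receptor of CXCL12, and Adm, which encodes adrenomedullin, were under the filter on low values.

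Dll4 declined in mean from sham to TAC saline to TAC NRG, and neighbouring groups in that order overlapped. Sham libraries held 22.8, 24.9, 18.3, 27.0 and 23.2 CPM, TAC saline libraries 23.3, 18.6, 17.5, 18.9 and 15.03 CPM, and TAC NRG libraries 17.3, 20.6, 14.7, 11.4 and 14.8 CPM. TAC NRG 2 was above the lowest sham library, so TAC NRG and sham overlapped too. Dll4 fell in TAC NRG against sham (log2 -0.58 ± 0.15 SE, limma adjusted p = 0.0113), but without TAC NRG 4 and 5 the log2 fold change was -0.41 and the limma adjusted p 0.0984. Constriction alone gave -0.32 ± 0.15 (limma adjusted p = 0.201), and the TAC groups differed by -0.26 ± 0.15.

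The Notch pathway had 18 other tested genes, and Hes1 was the 1 that passed. Hes1, a transcriptional repressor and Notch target, held 64.6 ± 10.7 CPM in sham, 67.9 ± 4.97 CPM in TAC saline and 92.1 ± 9.84 CPM in TAC NRG. It rose in TAC NRG against sham (log2 0.52 ± 0.11 SE, limma adjusted p = 0.00119), and all 5 TAC NRG libraries lay above all 10 saline libraries. Against TAC saline the limma adjusted p was 0.0363, a call lost in 7 fits that left out 1 library and without TAC NRG 4 and 5 (adjusted p = 0.0708). The endothelial Notch target Hey1 held 12.0 ± 1.73, 8.83 ± 1.83 and 13.7 ± 3.87 CPM in the 3 groups and passed in none (lowest limma adjusted p 0.121). TAC saline against sham called 0 of the 18 in limma, with 3 at an unadjusted p under 0.05.

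Angpt1 fell with constriction in both TAC groups, a change in TAC saline that was known when the gene was picked. Sham libraries held 13.7, 16.2, 20.6, 15.4 and 15.4 CPM, and TAC saline libraries 3.61, 10.1, 7.79, 11.7 and 4.21 CPM. TAC NRG libraries held 8.43, 8.44, 9.81, 12.8 and 9.94 CPM. Every TAC library was below every sham library, and the TAC groups overlapped, with TAC saline 1 and 5 the lowest. The fall in TAC saline was 2.38-fold (log2 -1.25 ± 0.25 SE), for which no p is given, and the log2 value ranged from -1.45 to -1.03 when each library was left out. In TAC NRG it was 1.65-fold against sham (log2 -0.72 ± 0.25 SE, limma adjusted p = 0.0492). That comparison shares its sham libraries with the one known beforehand, so its p is not independent of the choice of Angpt1. The call missed the threshold in 9 of the fits that left out 1 library, with adjusted p up to 0.130. It also missed with total reads as scaling (0.0859), with no filter (0.0585), with a robust spread (0.0528) and relative to endothelial markers (0.0838). The TAC groups differed by 0.53 ± 0.25 on the log2 scale. Reads per library were 12 to 64.

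Of 7 other tested angiopoietin and Tie genes, Svep1, a matrix protein that binds Tie1, rose in both TAC groups against sham. It held 6.12 ± 1.15, 14.3 ± 5.86 and 14.9 ± 4.42 CPM in sham, TAC saline and TAC NRG (log2 1.13 and 1.24, limma adjusted p = 0.00587 and 0.00162). Ptprb, the endothelial phosphatase that restrains Tie2, fell in TAC NRG against sham from 76.0 ± 13.2 to 47.2 ± 8.27 CPM with no overlap (log2 -0.69 ± 0.12 SE, limma adjusted p = 0.000346). Angptl4, a secreted inhibitor of lipoprotein lipase, rose in the same comparison (log2 1.55 ± 0.46 SE, limma adjusted p = 0.0240), a call lost in 5 fits that left out 1 library and without TAC NRG 4 and 5 (adjusted p = 0.0726). Tek, which encodes Tie2, held 21.0 ± 4.47, 20.9 ± 2.10 and 18.2 ± 2.60 CPM and did not pass in any comparison. TAC NRG against TAC saline called 0 of the 7 in limma, with 1 at an unadjusted p under 0.05, Ptprb (limma adjusted p = 0.0504).

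Fgf1, an intracellular and released fibroblast growth factor, was lowest in TAC saline. Sham libraries held 103, 113, 119, 107 and 106 CPM, TAC saline libraries 81.7, 99.9, 83.6, 92.4 and 92.5 CPM, and TAC NRG libraries 107, 126, 114, 122 and 106 CPM. All 5 TAC saline libraries lay below all 10 others, while sham and TAC NRG overlapped. Fgf1 fell in TAC saline 1.22-fold against sham (log2 -0.29 ± 0.08 SE, limma adjusted p = 0.0231). This call depended on the fit: the limma adjusted p was 0.185 with total reads as the only scaling, which moved the median of all genes to 0.10 on the log2 scale, and it also missed without TAC saline 1 (0.0772), sham 2 (0.0522) or sham 3 (0.0638). With mitochondrial genes left out before scaling the adjusted p was 0.0574, and the TAC groups overlapped for Fgf1. TAC NRG was 1.28-fold above TAC saline, a log2 difference of 0.35 ± 0.08 (SE), and 0.36 without TAC NRG 4 and 5. It did not pass against sham (log2 0.07 ± 0.08, limma adjusted p = 0.644).

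Of 10 other tested genes of the FGF system, Fgf9, a secreted ligand, fell in TAC saline against sham with no overlap, from 9.61 ± 1.83 to 5.49 ± 1.04 CPM (log2 -0.81, limma adjusted p = 0.0150, or 0.0570 without TAC saline 5). In TAC NRG against sham, Frs2, the adaptor of FGF receptors, fell from 19.4 ± 4.07 to 11.1 ± 2.63 CPM (log2 -0.81, limma adjusted p = 0.00196). Fibp, a protein that binds Fgf1 inside cells, rose from 25.3 ± 2.47 to 31.96 ± 3.63 CPM (log2 0.33, limma adjusted p = 0.0454), a call lost in 8 fits that left out 1 library and without TAC NRG 4 and 5 (adjusted p = 0.253). The receptor Fgfr1 held 29.2 ± 2.66, 35.4 ± 6.24 and 35.7 ± 4.38 CPM and did not pass. TAC NRG against TAC saline called 0 of the 10 in limma, with 3 at an unadjusted p under 0.05.

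Endothelial tip cell genes, without the members, rose with constriction in 5 of 16 tested cases and fell in none (median log2 fold change 0.39). The 5 were mostly basement membrane genes: Col4a1 (log2 0.90, limma adjusted p = 6.65e-05) and Col4a2 (0.79) for collagen IV, Nid2 (0.76) for nidogen-2, Lamb1 (0.40) for a laminin chain, and Mcam (0.65), an adhesion molecule of endothelial cells and pericytes. Nid2 and Lamb1 did not pass in 3 and 4 of the fits that left out 1 library. The other 11 tip cell genes did not pass, among them Angpt2 (-0.3) and Unc5b (0.38). The cells in which the 5 genes rose cannot be told from bulk tissue. Against sham, Col4a1 and Col4a2 also rose in TAC NRG (0.83 and 0.76), and Igfbp3 fell (log2 -0.43, limma adjusted p = 0.0447, lost in 8 such fits, and 0.148 without TAC NRG 4 and 5). TAC NRG against TAC saline called Trp53i11 alone, lower by log2 -0.80 (limma adjusted p = 0.0243, and 0.187 without TAC NRG 4 and 5). The median of the 16 genes was -0.16 there.

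Hypoxia response genes, among whose known targets Vegfa is counted, were tested in 20 cases. In TAC saline against sham 1 fell, Egln1, an oxygen-sensing prolyl hydroxylase, from 532 ± 21.9 to 413 ± 39.8 CPM (log2 -0.37, limma adjusted p = 0.00259), and none rose. In TAC NRG against sham 5 rose and 2 fell. Ldha, lactate dehydrogenase A, went from 840 ± 40.7 to 1160.0 ± 131 CPM (log2 0.46, limma adjusted p = 0.000346), Hif1a, the hypoxia factor subunit, rose by 0.56 and Egln3, another prolyl hydroxylase, by 0.45. The glucose transporter Slc2a1 (0.47) and the collagen prolyl hydroxylase P4ha1 (0.34) rose, and Egln1 (-0.34) and Epas1 (-0.23) fell, but Slc2a1, P4ha1 and Epas1 were lost in 7 or 8 fits that left out 1 library. Epas1 was also lost without TAC NRG 4 and 5 (limma adjusted p = 0.119). TAC NRG against TAC saline called Egln3 alone (log2 0.48, limma adjusted p = 0.0403, lost in 7 fits that left out 1 library, and 0.0955 without TAC NRG 4 and 5).

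**Figure D3:**
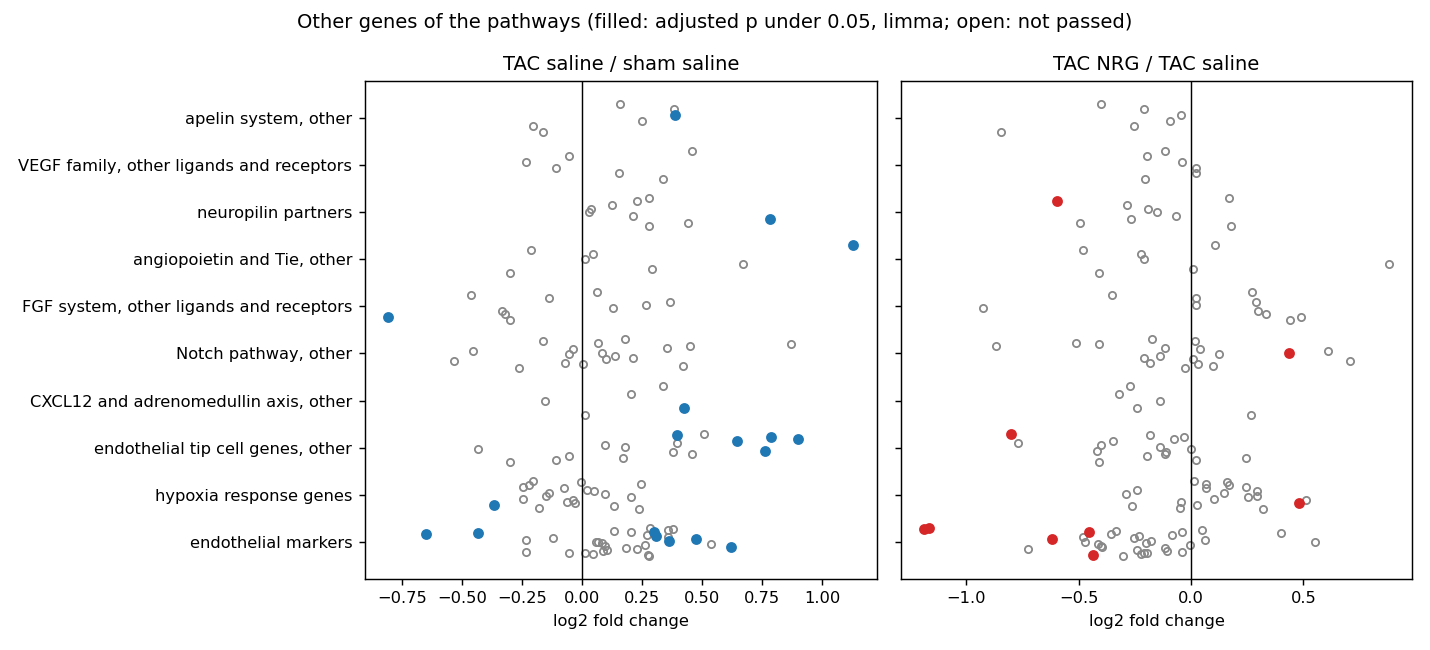
Log2 fold change (horizontal axes) of each tested gene of the pathway lists and endothelial markers, without the 10 members, for TAC saline over sham saline (left) and TAC NRG over TAC saline (right), with filled points past a limma adjusted p of 0.05. On the left, 5 tip cell genes and 5 endothelial markers are filled on the right of 0, and on the right panel 5 endothelial markers are filled on the left of 0.

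The levels of endothelial markers are given beside those of the members. All 32 markers were expressed in every group, and their summed level was 2468 to 2513 CPM in sham, 2553 to 3024 CPM in TAC saline and 2330 to 2483 CPM in TAC NRG, so the TAC groups did not overlap. Fabp4 weighed most in this sum, with means of 463, 558 and 532 CPM in the same order, so the sum does not count all markers alike. In TAC saline against sham 5 markers rose and 2 fell (median log2 fold change 0.19). Of the 5 that rose, Ecscr passed in all 20 alternatives, Gpihbp1 was lost in 1, Cav1 in 3, Icam2 in 6 and Sox18 in 9. In TAC NRG against sham 1 rose (Sox17) and 5 fell (median -0.14). The 5 were Aqp1, Pcdh12, Bcl6b, Sox7 and Ushbp1. Without TAC NRG 4 and 5, Sox17 and Aqp1 still passed and the others did not, with limma adjusted p of 0.0514 (Pcdh12) to 0.17 (Sox7). The share of all genes called was 10.7% (TAC saline against sham), 16.1% (TAC NRG against sham) and 1.3% (TAC NRG against TAC saline). In TAC NRG against TAC saline 5 fell and none rose (median -0.24): Bcl6b, a transcriptional repressor (-1.19), Pcdh12, a protocadherin (-1.17), Icam2, an adhesion molecule (-0.62), Cav1, caveolin-1 (-0.45), and Cdh5, VE-cadherin (-0.43). Without TAC NRG 4 and 5, Cav1 still passed and the other 4 did not, with limma adjusted p of 0.0558 (Cdh5) to 0.136 (Icam2).

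Relative to that sum, Apln was 5.93 to 7.08 CPM per 1000 CPM of markers in sham, 3.81 to 6.32 in TAC saline and 1.16 to 2.64 in TAC NRG. Nrp2 was 8.45 to 11.5, 10.6 to 12.2 and 4.72 to 7.58 in the same order, and Ackr3 was 35.5 to 50.7, 31.5 to 56.2 and 20.5 to 28.4. All 3 genes stayed lower in every TAC NRG library than in any saline library on this scale. The log2 difference between TAC NRG and TAC saline was then -1.37 for Apln, -0.91 for Nrp2 and -0.63 for Ackr3, against -1.58, -1.12 and -0.83 on the authors' scaling. For Nrp1 it was -0.35 and for Aplnr -0.43. On this scale, which was added after the data were seen, Vegfb and Dll4 also passed in TAC saline against sham (log2 -0.29 and -0.47, limma adjusted p = 0.0363 and 0.0418), whereas Angpt1 missed in TAC NRG against sham (0.0838).

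**Figure D4:**
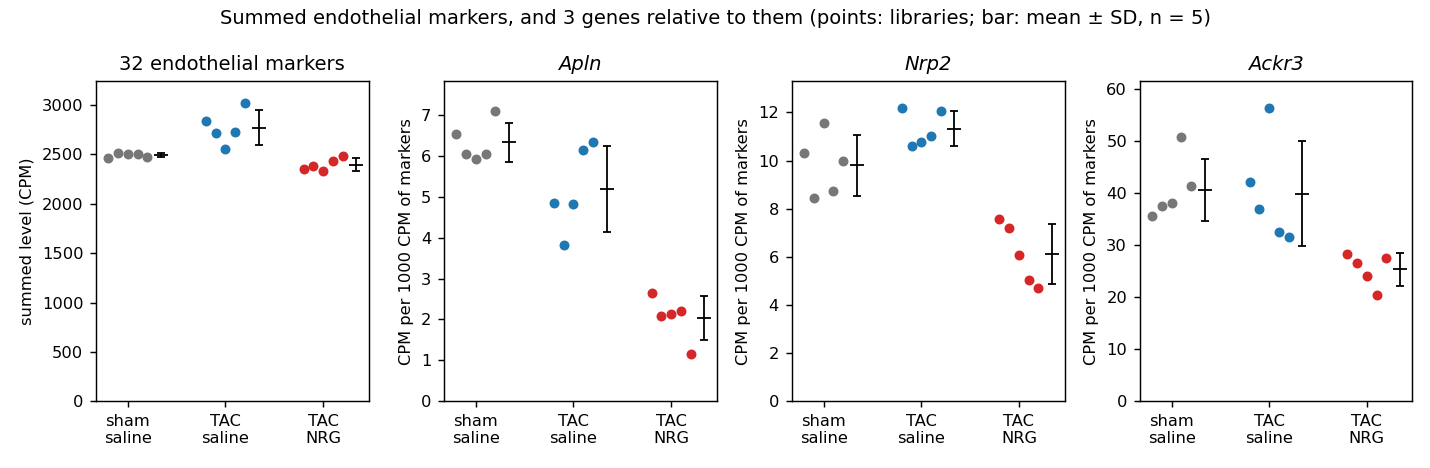
Summed level of the 32 endothelial markers in CPM (left) and the levels of Apln, Nrp2 and Ackr3 per 1000 CPM of those markers in each library, with bars for the mean ± SD of 5 libraries. The marker sum is highest in TAC saline, and the TAC NRG points of all 3 genes lie below the saline points.

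Genes with the pattern most like that of Apln and Nrp2 were taken by Pearson's r of the log2 values over all 15 libraries, as a description, since the libraries share groups, depth and scaling. For Apln they were Slc26a6 (r = 0.883), an anion exchanger, Ide (0.877), the insulin-degrading enzyme, Nrp2 (0.873), Ppp1r16b (0.868), a regulatory subunit of protein phosphatase 1, and Klf6 (0.868), a zinc finger transcription factor. After subtraction of each group's mean the values were 0.491, 0.159, 0.583, 0.614 and 0.713, so Ide followed Apln mainly between groups and Klf6 also within them. For Nrp2 they were Cd93 (0.895), an endothelial membrane protein, Kif26a (0.892), a kinesin family member, Rnf213 (0.875), a ubiquitin ligase, Nhsl2 (0.874) and Apln. Within groups these were 0.815, 0.735, 0.356, 0.627 and 0.583. Cd93 held 87.5 ± 10.3, 116 ± 18.1 and 69.2 ± 18.4 CPM in sham, TAC saline and TAC NRG, the same order of groups as Nrp2. Between Apln and its receptor the correlation was 0.486, or 0.209 within groups, and between Nrp1 and Nrp2 it was 0.75, or 0.593 within groups. The shallow TAC NRG libraries 4 and 5 were the lowest for both Nrp1 and Nrp2, and the correlation without them was not computed. Apln and Ackr3 correlated at 0.747 over all libraries and at -0.365 within groups.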

How the data were processed

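Each deposited table gives log2 values: from their spacing, the authors took reads plus 0.5, applied 1 factor per library and took the log2. The submitters' processing notes name GRCm39 as the build; the aligner and counter were not given in the sources used here. Whole reads (within 0.05) came back for 98.9% to 99.5% of values per library once the factor was undone. Differences were fitted by limma 3.58.1 in R 4.3.3 (spread allowed to follow mean level) on those log2 values, with all 15 libraries together. Tested genes had 2.95 reads per M, or 10 in a library of median depth, in 5 or more libraries and 15 reads in all, so 11018 were kept and 4240 left out. Tests were two-sided, p-values were adjusted by Benjamini-Hochberg over the 11018, and the threshold was 0.05. The fit was tested on simulated data. The members and lists were chosen with earlier results of these data known. The text names all members, list genes past the threshold (up to 6 a list and comparison) with up to 2 others for their role, and the 5 genes most correlated with Apln and with Nrp2. Alternatives covered scaling, filter, spread, groups fitted, replicate numbers and leaving out libraries. Summaries and plots used Python 3.11.15 with numpy 2.4.6, pandas 2.3.3 and matplotlib 3.10.9.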

Additional observations from a re-analysis of the deposited data

How the results depend on the processing

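No called member or list gene changed sign under the alternatives computed for it. Genes called numbered 1180 (TAC saline against sham), 1777 (TAC NRG against sham) and 143 (TAC NRG against TAC saline). With each library left out in turn they ranged from 636 (without TAC saline 5; 708 without TAC saline 1) to 1495, from 1338 to 1854, and from 58 to 229. With total reads as scaling, 1078 of 1269, 1364 of 1798 and 48 of 109 called genes were higher, against 713 of 1180, 963 of 1777 and 74 of 143 on the authors' scaling. The TAC NRG against TAC saline count was 58 without TAC NRG 4, 77 without TAC NRG 5, 78, 92 and 93 without TAC saline 1, 4 and 5, and 229 without TAC NRG 2. It was 77 with only the 2 groups fitted, and 39 with TAC NRG 4 and 5 both left out, an alternative chosen after the data were seen, as were voom weights and scaling to endothelial markers. Members past the threshold in TAC saline against sham were 2, and 1 to 2 with each library left out (1 without sham 2, sham 3 or TAC saline 1). They were 1 with mitochondrial genes left out before scaling, 3 without TAC NRG 4 and 5 (Nrp2 added), and 4 relative to the endothelial marker sum. Members past it in TAC NRG against sham were 6, 5 to 6 with each library left out, and 4 without TAC NRG 4 and 5. Apln and Nrp2, picked from values of these TAC NRG libraries, are in each of those counts. Members without overlap between the TAC groups were 4, or 4 to 5 with each library left out; with mitochondrial genes left out before scaling they were Apln, Nrp1, Nrp2 and Ackr3, so Nrp1 took the place of Fgf1.

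Replicate numbers did not pair the samples: same-numbered libraries correlated at -0.246 to 0.080 after group means were removed, and 0 of 15 pairs exceeded 0.1. With the replicate block the counts were 1049, 1645 and 111, and 2 and 7 members passed in the comparisons with sham, Vegfa being the one added. The planned count models (edgeR and DESeq2) were not run, since the deposited unit is log2. Depth limits Apln and Angpt1 most, with as few as 6 and 12 reads in a library.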

Other observations

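Markers of other vessel and tissue cells were measured beside the members, and their part in the members' values was not tested. Pericyte and smooth muscle markers (14 of 14 tested) summed to 751 to 869 CPM in sham, 725 to 914 in TAC saline and 712 to 867 in TAC NRG. Against sham, 1 rose and 1 fell in TAC saline, and 3 rose and 2 fell in TAC NRG. Cspg4, a proteoglycan of pericytes, rose with no overlap in TAC saline (log2 0.65, limma adjusted p = 0.0149, lost in 2 fits that left out 1 library) and in TAC NRG (0.81, limma adjusted p = 0.00171). Abcc9, a potassium channel subunit on this list, fell in TAC saline against sham (log2 -0.52, limma adjusted p = 0.00638) and in TAC NRG (-0.55, limma adjusted p = 0.00249). The cells in which Abcc9 fell cannot be told from bulk tissue. Rgs5, a pericyte regulator of G protein signalling, fell in TAC NRG against sham (-0.33, limma adjusted p = 0.0125, or 0.0774 when scaled by total reads alone). Tagln and Cnn1, actin-binding proteins of smooth muscle, rose there (1.19 and 1.77, limma adjusted p = 0.000119 and 0.00236). Cnn1 had only 5 to 64 reads per library, and its TAC NRG and sham libraries overlapped. The smooth muscle markers Myh11 (0.12, limma adjusted p = 0.795) and Acta2 (0.41, limma adjusted p = 0.136) did not pass there. Fibroblast markers rose in 7 and fell in 1 of 12 cases in TAC saline against sham, and rose in 7 and fell in 2 in TAC NRG against sham. Macrophage markers rose in 7 of 12 cases in TAC saline and in 2 in TAC NRG, C1qa and Cd68, both lost without TAC NRG 4 and 5 (limma adjusted p = 0.0845 and 0.0722). Of the 7, C1qa and Tyrobp passed in all 20 alternatives, while C1qc, Adgre1, Cd68, Cx3cr1 and C1qb were lost in 3 to 7.

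Among the endothelial markers, Sox17, a transcription factor of arterial endothelial cells, held 13.0 ± 1.84, 13.6 ± 1.96 and 20.2 ± 4.61 CPM in sham, TAC saline and TAC NRG and rose in TAC NRG against sham (log2 0.62, limma adjusted p = 0.00829). It was the 1 arterial marker of 8 to pass there. Aqp1, an endothelial water channel, fell in both TAC groups against sham (-0.65 and -1.0, limma adjusted p = 0.0116 and 0.00014). Rgcc, a cell cycle regulator high in capillaries, fell in TAC saline (-0.44, limma adjusted p = 0.00880) and was at -0.04 in TAC NRG. None of the 4 venous and 6 endocardial markers tested passed with limma in a comparison (lowest adjusted p 0.368 and 0.0824). Venous markers had 0 at an unadjusted p under 0.05, and endocardial markers had 1, 1 and 0 in TAC saline against sham, TAC NRG against sham and TAC NRG against TAC saline. Of 5 lymphatic markers, 1 rose (Pdpn, 1.18) and 1 fell (Prox1, -0.71) in TAC NRG against sham, and the other 3 did not pass. Both calls were lost without TAC NRG 4 and 5 (limma adjusted p = 0.0575 and 0.136). The cells in which Pdpn and Prox1 changed cannot be told from bulk tissue. Blood transcripts rose in 5 of 5 tested cases in TAC NRG against each other group, with a median log2 fold change of 1.03 against TAC saline. Without TAC NRG 4 and 5 none of them passed. The limma adjusted p was then 0.0558 (Hba-a1) to 0.128 (Hbb-bs) against sham and 0.167 (Hbb-bt) to 0.254 (Hba-a2) against TAC saline.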
